A study of Mus musculus with 12 samples.

Results

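The genes of the betaine and dimethylglycine pathway were described in mouse embryonic stem cells (mESCs) grown in serum or in 2i medium. They are Dmgdh, Bhmt, Bhmt2, Sardh, Chdh and Gnmt, 6 of the 39017 genes in the count table, and all 6 were among the 17885 genes that passed the filter on low counts. The set was chosen by measured values. Dmgdh has the highest log2 fold change between 2i and serum in the 3B3L line among called genes with at least 10 CPM (reads of a gene scaled to a common library size) in a group, and Bhmt and Bhmt2 were selected on their place beside it on chromosome 13. The other members share the pathway. Values for 2i against serum in 3B3L are therefore given as a description with no test for any of the 6 genes, and Dmgdh was tested in J1 alone. In the contrast used for the choice Dmgdh stood at 7.14 ± 0.1 (log2 fold change ± standard error, SE), and the genes just outside the choice were Gm5096 at 6.42 ± 0.17 and Tlx2 at 6.17 ± 0.21.

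There were 4 groups with 3 biological replicates each, and stranded poly(A) RNA was sequenced from all 12. The J1 line is wild type and male. The other line, 3B3L (3B3-3l in the labels), has its endogenous Dnmt3a and Dnmt3b genes knocked out and carries a Dnmt3b transgene and a Flag-tagged Dnmt3l transgene, both driven by the constitutive CAG promoter. Serum medium was DMEM with fetal calf serum and LIF (leukaemia inhibitory factor), at 500 U/ml in the labels and at the dose of the 2i medium in the study's methods. The 2i medium was serum-free N2B27 with LIF at 1000 U/ml, the MEK inhibitor PD0325901 at 1 uM and the GSK3 inhibitor CHIR99021 at 3 uM, so inhibitors, base medium and any difference in LIF dose cannot be told apart. In serum, J1 cells were kept on feeder cells that were depleted before RNA was taken, and 3B3L cells were kept on gelatin, so line and culture surface cannot be told apart there.

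Libraries held 37050652 to 44515395 estimated reads, and 3 reads in a library equalled 0.0684 to 0.0813 CPM. The line labels were checked with the DNA methyltransferase genes. In 2i, Dnmt3b stood at 44.1 ± 3.12 CPM in J1 and 928 ± 12.7 CPM in 3B3L (mean ± SD, n = 3), and Dnmt3a at 41.5 ± 2.78 and 4.67 ± 0.585 CPM. In serum the lines were less far apart for Dnmt3b, at 413 ± 12.2 CPM in J1 and 891 ± 32 CPM in 3B3L. Dnmt3a in serum stood at 166 ± 0.785 and 32.1 ± 2.5 CPM, so reads of this gene remained in 3B3L. Summed CPM of 8 embryonic stem cell markers was 4220 to 7371 in every library. Summed CPM of 10 fibroblast markers was 54.5 to 58.2 in J1 serum, 25.7 to 27 in J1 2i, 68.2 to 79.2 in 3B3L serum and 16.2 to 16.6 in 3B3L 2i. The members of this list did not all move one way, since Pdgfrb rose in J1 from 6.31 to 19.4 CPM (1.62 ± 0.1, adjusted p = 5.85e-10 by edgeR), while the other 6 tested markers fell in both lines (median of the list -3.1 in J1 and -3.76 in 3B3L). The sum was lower in 2i in both lines, as were the levels of Sardh, Chdh and Gnmt, and its part in those results was not tested. The pathway is best known in liver, and 10 visceral endoderm and liver markers were summed. In J1 this sum was 6 to 7.76 CPM in serum and 9.85 to 10.75 CPM in 2i. In 3B3L it was 12.2 to 13.2 CPM in serum and 9.81 to 10.7 CPM in 2i. The defining genes Afp, Alb and Ttr had no more than 3 reads in any library. Hnf4a and Gata4 were the highest, with group means of 3.05 to 6.44 and 2.23 to 4.22 CPM. With 2i, Gata4, Hnf4a and Sox17 rose in J1, and Apob and Foxa2 fell. For 3B3L, 5 of the 7 tested markers fell and 0 rose. The part of these cell types in the rise of Dmgdh was not tested. In bulk RNA, fewer cells of a type and less RNA per cell cannot be told apart.

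Betaine carries methyl groups that come from choline. CHDH oxidises choline in mitochondria on the way to betaine, BHMT moves a methyl group from betaine to homocysteine to form methionine and dimethylglycine, and the related BHMT2 uses S-methylmethionine as the donor. DMGDH and SARDH are mitochondrial flavoproteins that strip the remaining methyl groups in turn, from dimethylglycine to sarcosine and from sarcosine to glycine, passing carbon to folate and electrons to the electron transfer flavoprotein. GNMT runs in the other direction, since it methylates glycine to sarcosine with S-adenosylmethionine (SAM).

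Dmgdh, Bhmt2 and Bhmt lie together on mouse chromosome 13, and their start regions are shown because the 3 genes moved together. In the RefSeq annotation of GRCm38 (mm10), Dmgdh (ENSMUSG00000042102) runs from 93674436 to 93752823 on the plus strand, Bhmt2 (ENSMUSG00000042118) from 93656097 to 93674302 on the minus strand and Bhmt (ENSMUSG00000074768) from 93616891 to 93637758 on the minus strand. The Dmgdh and Bhmt2 starts point away from each other and are 134 bases apart, and the Bhmt start is 36678 bases from that of Dmgdh. The other genes are on other chromosomes. Sardh (ENSMUSG00000009614) is on chromosome 2, 27188393 to 27248332, Chdh (ENSMUSG00000015970) on chromosome 14, 30008901 to 30040468, and Gnmt (ENSMUSG00000002769) on chromosome 17, 46725664 to 46729211.

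The windows below are RefSeq promoter sequences of GRCm38.p6, 300 bases each, 5′ to 3′ on the strand of the gene, with CpG dinucleotides in capitals. The Dmgdh window (chr13:93674186-93674485, plus strand) holds the shared start region, and its gene starts at base 251. Of it, 233 bases also belong to the Bhmt2 window (chr13:93674253-93674552, minus strand), and the Bhmt2 start falls at base 117. The Bhmt window (chr13:93637709-93638008, minus strand) is the third start of the cluster, and the Gnmt window (chr17:46729116-46729415, minus strand) belongs to the most abundant member that fell in 2i.
Dmgdh: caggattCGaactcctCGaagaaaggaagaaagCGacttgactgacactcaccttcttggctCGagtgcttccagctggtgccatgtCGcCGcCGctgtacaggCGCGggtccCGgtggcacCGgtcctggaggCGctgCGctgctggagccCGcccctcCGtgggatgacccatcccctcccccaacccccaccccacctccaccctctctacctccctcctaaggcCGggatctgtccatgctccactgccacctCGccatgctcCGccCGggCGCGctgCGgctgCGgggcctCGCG
Bhmt: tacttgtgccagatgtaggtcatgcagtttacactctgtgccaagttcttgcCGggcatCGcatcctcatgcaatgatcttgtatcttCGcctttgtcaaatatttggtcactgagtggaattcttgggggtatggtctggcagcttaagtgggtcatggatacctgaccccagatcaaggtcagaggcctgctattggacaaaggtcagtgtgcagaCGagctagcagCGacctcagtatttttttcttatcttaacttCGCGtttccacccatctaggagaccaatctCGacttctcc
Gnmt: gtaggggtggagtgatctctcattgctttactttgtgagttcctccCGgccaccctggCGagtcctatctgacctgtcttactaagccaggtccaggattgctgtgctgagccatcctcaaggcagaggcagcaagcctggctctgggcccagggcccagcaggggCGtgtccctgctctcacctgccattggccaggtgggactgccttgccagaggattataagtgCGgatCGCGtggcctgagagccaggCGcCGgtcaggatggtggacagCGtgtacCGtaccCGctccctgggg

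The Dmgdh and Bhmt2 windows held 25 and 26 CpGs, with GC contents of 68% and 73.7%. Of all 32851 windows in the promoter table, 18.4% and 16.9% held as many CpGs or more, and the median window held 7. The Bhmt window held 8 CpGs at a GC content of 48%, and 48.6% of windows held as many. Thus the 3 neighbouring genes differ in the CpG content of their starts. Of the genes lower in 2i, Gnmt had 11 CpGs, Sardh had 4, and Chdh had 26 at 1 of its 3 annotated starts and 4 at the others. A pair of motifs was searched on both strands, chosen after the sequences were seen: TCAAGGTCA, known for the orphan nuclear receptor ESRRB, and CTTTGAT, known for the TCF/LEF factors of Wnt signalling. They share no overlapping site in these windows. TCAAGGTCA was present in the Bhmt window, at bases 176 to 184, and in 0.423% of all windows. CTTTGAT was in none of the members' windows and in 3.73% of all windows. These are matches of letters and not binding measurements.

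In J1, all 6 genes passed the test for 2i against serum, and they split by direction. Dmgdh, Bhmt and Bhmt2 rose and Sardh, Chdh and Gnmt fell, 3 genes each way. Sardh and Chdh held at most 8.02 and 4.02 reads in any 2i library, and passed the filter on low counts through serum alone. Their calls as lower in 2i are therefore not independent of the filter. Over all 17885 genes tested, 33.2% rose and 32.9% fell in that contrast, so most genes were called and a call alone sets no gene apart. The sizes of the 3 rises were further out, since Dmgdh ranked 31 from the highest log2 fold change among all genes tested, Bhmt 104 and Bhmt2 124. The 3 falls were less near the end of that order, with Gnmt at 16755, Sardh at 16799 and Chdh at 17031 of 17885. In 3B3L, where 32.7% of genes rose and 32.7% fell, each of the 6 genes had the same direction as in J1.

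**Figure D1:**
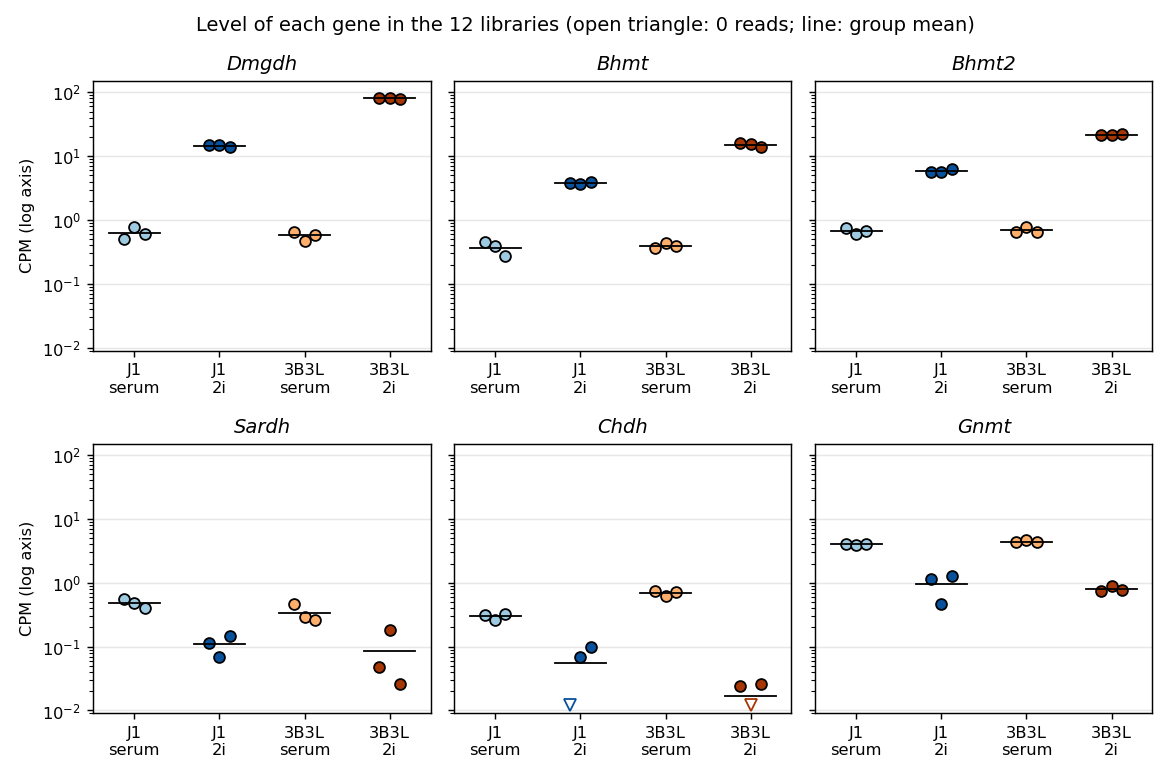
CPM of each gene (log axis) in the 12 libraries, by line and medium, with a horizontal line at each group mean and an open triangle for a library with 0 reads. Dmgdh, Bhmt and Bhmt2 are highest in 3B3L 2i and next in J1 2i, and Sardh, Chdh and Gnmt are lower in 2i than in serum in both lines.

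Dmgdh, the dimethylglycine dehydrogenase, was low in serum. Its 3 libraries of J1 serum held 0.501, 0.771 and 0.596 CPM, which were 20.9, 32.1 and 22.1 reads. In J1 2i they held 15, 14.9 and 13.7 CPM. In 3B3L serum they held 0.653, 0.478 and 0.592 CPM, and in 3B3L 2i they held 82.7, 81.7 and 79 CPM. The serum libraries of the lines overlapped, every 2i library lay above every serum library, and every 3B3L 2i library lay above every J1 2i library. In J1, 2i raised Dmgdh by 4.54 ± 0.11 on the log2 scale, or 23.2-fold (adjusted p = 1.57e-14, quasi-likelihood test of edgeR with Benjamini-Hochberg adjustment over all genes tested, as for every adjusted p here unless named). The described value in 3B3L was 7.14 ± 0.1, or 141-fold. Between the lines Dmgdh differed by -0.12 ± 0.2 in serum and by 2.48 ± 0.07, or 5.57-fold, in 2i, and the 2i effects differed by 2.6 ± 0.21 (3B3L minus J1).

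The size of the Dmgdh change depends on a short second transcript. Dmgdh-001, the coding transcript of 2990 bases, took 99.4 ± 0.268% of the gene's reads in J1 2i and 99.9 ± 0.0492% in 3B3L 2i, but 80.7 ± 12.6% in J1 serum and 68.2 ± 9.01% in 3B3L serum. The rest fell on Dmgdh-002, a processed transcript of 545 bases, which held 1.08 to 8.05 reads in J1 serum, 4.37 to 9.47 in 3B3L serum and 0.957 to 4.92 over the libraries in 2i. The coding transcript thus carried the change, and the second transcript stayed at a few reads in all groups. With an offset for mean transcript length, the log2 fold change of Dmgdh was 3.54 ± 0.19 in J1 (adjusted p = 1.03e-09 by edgeR) and 5.55 ± 0.18 in 3B3L. With coding transcripts alone it was 4.85 ± 0.11 and 7.67 ± 0.1.

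Bhmt, the betaine-homocysteine methyltransferase, had the same order of groups at lower levels. In J1 its libraries held 0.454, 0.386 and 0.271 CPM in serum and 3.76, 3.67 and 3.88 CPM in 2i. In 3B3L it was 0.365, 0.43 and 0.386 CPM in serum and 15.8, 15.3 and 14 CPM in 2i. No 2i library overlapped a serum library, and the lines overlapped in serum alone. Bhmt rose by 3.32 ± 0.15, or 10-fold, with 2i in J1 (adjusted p = 1.61e-11), beside a described value of 5.24 ± 0.13, or 37.8-fold, in 3B3L.

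Bhmt2, the S-methylmethionine-dependent relative, followed closely. In serum J1 held 0.74, 0.603 and 0.677 CPM, and in 2i it held 5.74, 5.67 and 6.34 CPM. For 3B3L the values were 0.653, 0.788 and 0.644 CPM in serum and 21.8, 21.4 and 22.2 CPM in 2i. Again the 2i libraries lay above all serum libraries and separated by line. Bhmt2 rose by 3.13 ± 0.11, or 8.75-fold, with 2i in J1 (adjusted p = 1.21e-12), and the described value in 3B3L was 4.96 ± 0.1, or 31.1-fold. Bhmt and Bhmt2 are paralogues, so the division of shared reads between them is uncertain. Their summed reads rose by 3.21 ± 0.1 in J1 (adjusted p = 1.83e-13 by edgeR).

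Bhmt-001, the coding transcript, held 83.6 ± 7.49% of the gene's reads in J1 serum, 87.2 ± 5.58% in J1 2i and 95.7 ± 1.19% in 3B3L 2i, but 28.5 ± 4.26% in 3B3L serum. There the transcript Bhmt-002, which retains an intron, took 71.5 ± 4.26%, as 10.3 to 12 reads in a library against 3.76 to 6.01 for the coding transcript. The shares in serum did not overlap between the lines (exact two-sided permutation p = 0.1, the smallest that 3 against 3 can give), and few reads stand behind them. Counted on coding transcripts alone, Bhmt in serum was lower in 3B3L than in J1 by a log2 difference of -1.36 ± 0.34 (adjusted p = 0.00531 by edgeR), where all its reads gave 0.08 ± 0.23. Its described change with 2i in 3B3L was then 6.9 ± 0.18.

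**Figure D2:**
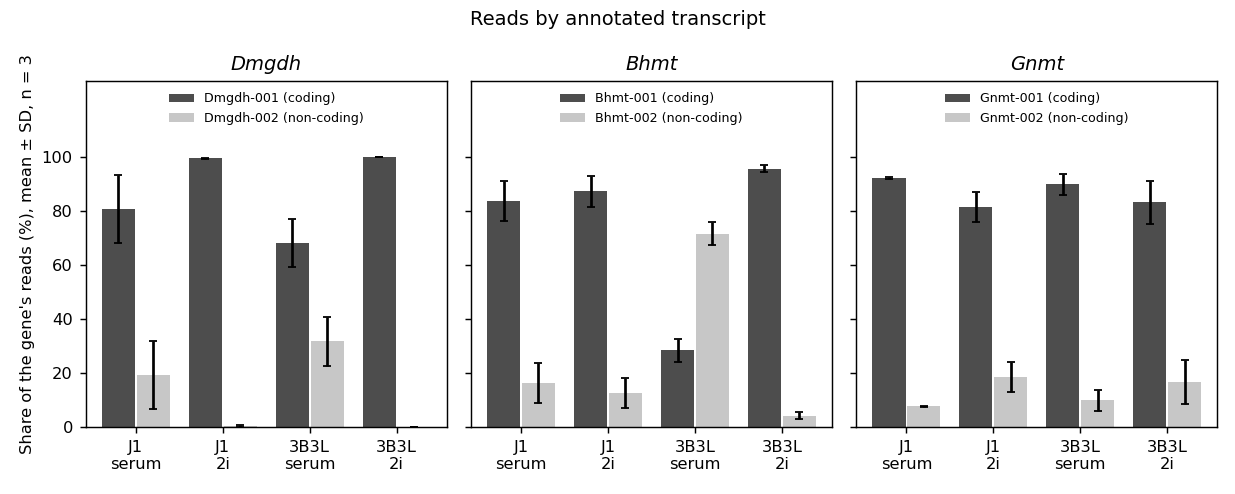
Share of the reads of Dmgdh, Bhmt and Gnmt on the coding transcript (dark bars) and the non-coding transcript (light bars) in each group, as mean ± SD of 3 libraries. Dmgdh-001 took 99.4% or more in 2i, and Bhmt-002 took 71.5% in 3B3L serum against 16.4% in J1 serum.

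Sardh, the sarcosine dehydrogenase, was rare in every group. For J1 the libraries held 0.549, 0.482 and 0.406 CPM in serum and 0.114, 0.0689 and 0.146 CPM in 2i. In 3B3L there were 0.47, 0.287 and 0.258 CPM in serum and 0.0481, 0.185 and 0.0258 CPM in 2i. All libraries in 2i lay below those in serum, and those of the lines overlapped within each medium. Summed over libraries, 14 reads in J1 2i stood against 58 in J1 serum, a depth-corrected ratio of 0.226 (95% exact interval 0.116 to 0.41, which covers counting error only). The fall in J1 was -2.11 ± 0.46 (adjusted p = 0.000796). In 3B3L the ratio was 0.265 (0.123 to 0.526) and the described value was -1.89 ± 0.51, which was -3.1 ± 0.6 without 3B3L 2i replicate 2, the library with 8.02 of the group's reads. The coding transcript Sardh-001 had 0 reads in all 3 libraries of 3B3L 2i and 1.13 to 2.53 in those of J1 2i. On coding transcripts alone the fitted change in 3B3L was -6.52 ± 1.1 and the difference between the lines in 2i was -4.03 ± 1.55 (adjusted p = 0.0475 by edgeR). With a group at 0 reads these fitted values depend on the prior count and are no bound.

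Chdh, the choline dehydrogenase at the head of the pathway, was nearly absent in 2i. In serum it held 0.31, 0.265 and 0.325 CPM in J1, against 0.731, 0.621 and 0.721 CPM in 3B3L. In J1 2i there were 0, 3.02 and 4.02 reads, and in 3B3L 2i there were 1.01, 0 and 1.01 reads. The serum libraries separated by line, while in 2i the lines overlapped near the floor of 3 reads. The ratio of 2i to serum was 0.182 (0.0684 to 0.415) in J1, with 7 against 36 reads, and 0.0235 (0.0028 to 0.0876) in 3B3L, with 2 against 82 reads. By the fit, Chdh fell by 2.39 ± 0.54 on the log2 scale in J1 (adjusted p = 0.00108), beside a described -5.17 ± 0.59 in 3B3L. Over all 3 libraries of J1 2i, the coding transcript Chdh-001 of 5629 bases had 0 reads, the coding transcript Chdh-002 of 3406 bases had 0 to 2.01 reads, and Chdh-003, a processed transcript of 383 bases, had 2.01 reads at most. With the offset for transcript length the change in J1 was therefore -0.06 ± 0.97 (adjusted p = 0.96), and with coding transcripts alone it was -3.52 ± 0.57 (adjusted p = 5.34e-05 by edgeR).

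Gnmt, the glycine N-methyltransferase, was the most abundant member in serum. Levels in J1 were 4.11, 3.83 and 3.98 CPM in serum and 1.14, 0.459 and 1.27 CPM in 2i. In 3B3L serum there were 4.38, 4.59 and 4.28 CPM and in 3B3L 2i 0.745, 0.88 and 0.773 CPM. The media did not overlap in either line, and replicate 2 of J1 2i lay below all other libraries. Gnmt fell by 2.06 ± 0.22 on the log2 scale in J1, or 4.17-fold (adjusted p = 4.26e-07), and the described value in 3B3L was -2.46 ± 0.22. The coding transcript Gnmt-001 held 81.4 ± 5.53% to 92.2 ± 0.253% of its reads in the 4 groups, with the rest on a transcript that retains an intron.

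**Figure D3:**
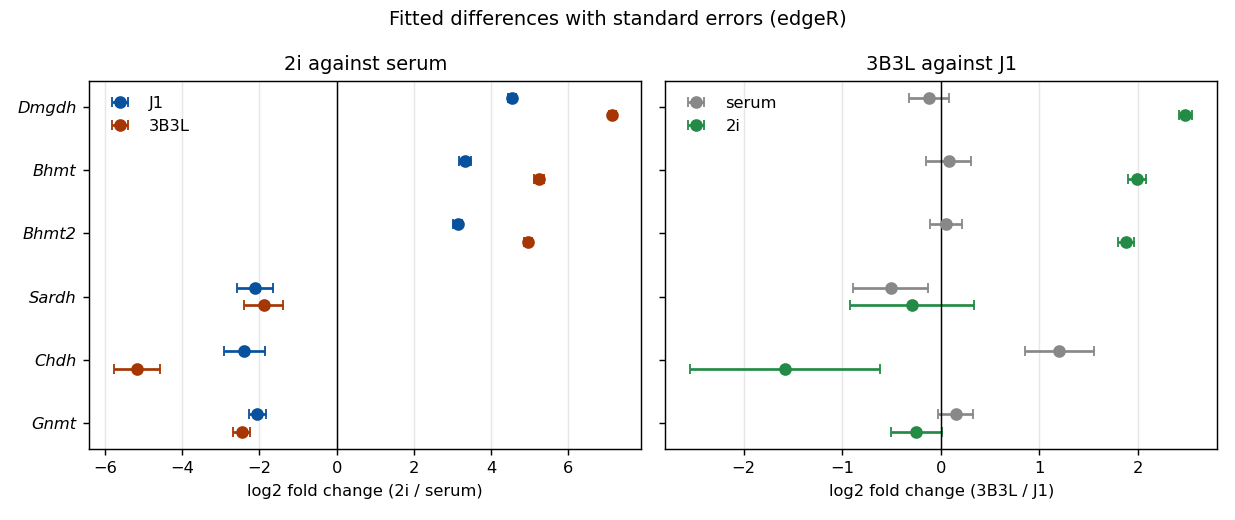
Fitted log2 fold changes of the 6 genes with SE bars, for 2i against serum in each line (left) and for 3B3L against J1 in each medium (right). In serum the 3 chromosome 13 genes lie within 0.12 of 0, and in 2i they lie at 1.88 to 2.48.

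Comparing the lines, Bhmt and Bhmt2 were called in 2i, and in serum neither was called when all reads of a gene were counted. On coding transcripts alone Bhmt was called in serum, as given above. Of the 5 members other than Dmgdh, 1 was called in serum. That was Chdh, higher in 3B3L by 1.2 ± 0.35 (adjusted p = 0.0139), where 21.5% of all genes tested were higher and 17.2% lower. The call was lost without J1 serum replicate 2 (1.11 ± 0.42, adjusted p = 0.0591 by edgeR). Bhmt differed in serum by 0.08 ± 0.23 (adjusted p = 0.862), Bhmt2 by 0.05 ± 0.16 (0.884), Sardh by -0.51 ± 0.38 (0.315) and Gnmt by 0.15 ± 0.18 (0.543). The 95% interval of the difference ran from -0.36 to 0.52 for Bhmt and from -0.27 to 0.37 for Bhmt2.

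In 2i, 2 of the 5 members were called between the lines, both higher in 3B3L, against 23% of all genes tested higher and 22.9% lower. Bhmt was higher by 1.99 ± 0.09, or 3.98-fold (adjusted p = 3.06e-10), and Bhmt2 by 1.88 ± 0.08, or 3.68-fold (adjusted p = 5.47e-11). The 3B3L 2i libraries also served to choose Dmgdh, beside which these genes were selected. Their p-values are therefore not independent of the choice. Sardh differed by -0.29 ± 0.63 (adjusted p = 0.74), Chdh by -1.58 ± 0.96 (0.198) and Gnmt by -0.25 ± 0.26 (0.474), with the intervals of Sardh and Chdh reaching -1.52 and -3.46. For Gnmt the outcome turned on 1 library, since without J1 2i replicate 2 the difference was -0.58 ± 0.16 (adjusted p = 0.0128 by edgeR).

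Whether 2i acted to a different extent in the lines was tested directly, as the 2i effect in 3B3L minus that in J1. It was positive for Bhmt, at 1.92 ± 0.25 (adjusted p = 3.11e-05), and for Bhmt2, at 1.83 ± 0.18 (adjusted p = 2.24e-06), so both rose more with 2i in 3B3L. The difference contains the contrast that chose Dmgdh, so its p-values for these neighbours are not independent of the choice. For Chdh the difference was -2.78 ± 1.03 (adjusted p = 0.0485), and this call was lost in 11 of the 12 fits that each left out 1 library. Of all genes tested, 16.3% had a positive and 18.3% a negative difference. Sardh at 0.22 ± 0.77 (adjusted p = 0.851) and Gnmt at -0.4 ± 0.32 (adjusted p = 0.36) were not called. Gnmt was called without J1 2i replicate 2, at -0.74 ± 0.19 (adjusted p = 0.00898 by edgeR).

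Levels of different genes were compared per length, as reads per kilobase after scaling to a common depth (the per-length counterpart of CPM), with each library's mean transcript length. In serum Gnmt was the highest member, at 4.68 ± 0.188 in J1 and 5.28 ± 0.209 in 3B3L. Dmgdh came next at 0.497 ± 0.216 and 0.658 ± 0.206, and in J1 its libraries overlapped those of Bhmt2 and Sardh. In 2i Dmgdh led with 5.36 ± 0.201 in J1 and 28.8 ± 0.571 in 3B3L. It was followed without overlap by Bhmt2 (2.58 ± 0.154 and 9.46 ± 0.205), Bhmt (1.7 ± 0.0862 and 6.97 ± 0.452) and Gnmt (1.17 ± 0.53 and 0.957 ± 0.0717). Sardh and Chdh were last in 2i, at 0.116 ± 0.104 and 0.16 ± 0.139 in J1, where they overlapped, and at 0.0641 ± 0.0585 and 0.00409 ± 0.00379 in 3B3L. Dmgdh thus stood below Gnmt in serum and above it in 2i, in both lines. Part of the order depends on the length used. By the length of the longest transcript, Dmgdh in serum was 0.221 in J1 and 0.208 in 3B3L, below the 0.295 and 0.305 of Bhmt2, and Bhmt in J1 2i was 0.996, below the 1.11 of Gnmt. Chdh in J1 2i was then 0.0102, and Dmgdh still led in 2i, at 5.17 and 28.7.

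Around Dmgdh, 14 genes of the count table other than Dmgdh were annotated within 1000000 bases of it, 12 of them not members. Of those 12, Cmya5 did not pass the filter, and 5 of the other 11 rose, 5 fell and 1 was not called in J1. The counts in 3B3L were also 5, 5 and 1. Beside them, 33.2% of all genes tested rose and 32.9% fell in J1, and 32.7% rose and 32.7% fell in 3B3L. Among the other genes with at least 1 CPM in a group, none rose as much as the 3 neighbours. Lhfpl2, a tetraspan membrane protein gene, rose by 1.3 ± 0.13 in J1 (adjusted p = 2.05e-07) and 0.35 ± 0.12 in 3B3L (adjusted p = 0.0227), and Ap3b1, an adaptor complex subunit, by 0.58 ± 0.04 and 0.7 ± 0.04. Gm9776, a predicted gene, rose by 0.85 ± 0.15 and 0.61 ± 0.16. Scamp1, a secretory carrier membrane protein gene, fell by 0.67 ± 0.07 and 1.09 ± 0.08. Arsb, the arylsulfatase gene on the far side of Dmgdh, gave -0.55 ± 0.17 (adjusted p = 0.0112) and -0.09 ± 0.17 (adjusted p = 0.656). Thbs4, a thrombospondin gene at the far end of the window, fell from 1.74 ± 0.0652 to 0.0396 ± 0.029 CPM in J1 (log2 fold change -5.37 ± 0.44, adjusted p = 2.27e-08) and by 4.64 ± 0.41 in 3B3L (adjusted p = 4.84e-08).

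AW495222, a long non-coding RNA inside Dmgdh on the other strand, is named after its values were seen. It held 3.02 reads in J1 serum, 20.8 in J1 2i, 4.22 in 3B3L serum and 92.9 in 3B3L 2i, summed over 3 libraries. It rose with 2i by 2.57 ± 0.87 in J1 (adjusted p = 0.0166) and by 4.36 ± 0.63 in 3B3L (adjusted p = 1.59e-05). Its libraries held 0.385 CPM or more in 3B3L 2i and 0.228 CPM at most in any other group. It thus passed the filter on low counts through the group where it is highest. Its p-values are therefore not independent of the filter, and its values are a description. Its exons overlap those of Dmgdh at 2 places in the GENCODE annotation, and the counting used strand. How far reads of Dmgdh on the wrong strand add to this count was not tested.

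**Figure D4:**
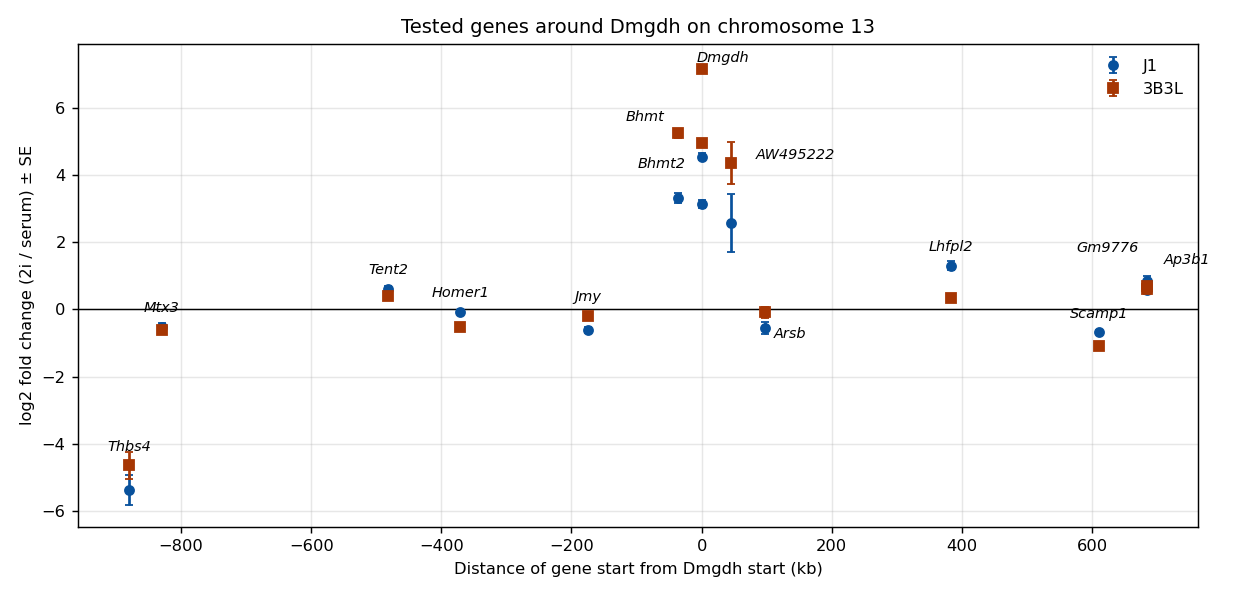
Log2 fold change with 2i (± SE) of the tested genes around Dmgdh in J1 (circles) and 3B3L (squares), by distance of each gene's start from that of Dmgdh in kb. At 0 kb the upper circle (4.54) and upper square (7.14) are Dmgdh, and the lower ones (3.13 and 4.96) are Bhmt2. Dmgdh, Bhmt, Bhmt2 and AW495222 lie at 2.57 to 7.14, while the other genes lie at 1.3 or below.

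The genes with the pattern most like that of Dmgdh were found from centred log2 CPM over the 12 libraries, among 10135 genes with at least 10 CPM in a group. The measure is the root mean square difference, and the libraries share their lines, media and depth. Gm5096 was nearest at 0.51, followed by Ly6a at 0.671, Bhmt at 0.855, Pou2f3 at 0.912 and Bhmt2 at 0.948. Ly6a, a cell surface antigen gene, went from 0.969 CPM in J1 serum to 10.1 in J1 2i and from 0.563 to 37.6 in 3B3L. Pou2f3, a POU transcription factor gene, went from 2.23 to 61.1 and from 4.44 to 105 CPM. Gm5096, Bhmt and Bhmt2 reach 10 CPM in 3B3L 2i alone, and the measure uses the values that chose Dmgdh. Among all 17884 other genes tested, with no minimum level, Bhmt and Bhmt2 ranked 5 and 9.

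Genes that handle choline and betaine around the pathway changed in both directions. The list mixes genes that bring choline and betaine in with genes, such as Chka, that send choline elsewhere. Of 14 listed genes 10 were tested, and 5 rose and 3 fell in each line (median log2 fold change 0.12 in J1 and 0.1 in 3B3L, beside 0.014 and 0.009 over all genes tested). Over all genes tested 33.2% rose and 32.9% fell in J1, and 32.7% rose and 32.7% fell in 3B3L. The choline transporter gene Slc44a1 went from 65.7 ± 1.86 to 132 ± 11.5 CPM in J1 (log2 fold change 1 ± 0.07, adjusted p = 4.17e-09) and rose by 1.01 ± 0.07 in 3B3L (adjusted p = 3.02e-09). Its relative Slc44a2 rose by 0.69 ± 0.08 and 0.46 ± 0.08. Chka, the choline kinase that sends choline to phosphatidylcholine, fell by 0.88 ± 0.07 (adjusted p = 2.09e-08) and 1 ± 0.07 (adjusted p = 4.17e-09). Pemt, which makes phosphatidylcholine by methylation, fell by 0.6 ± 0.09 in J1 and rose by 0.33 ± 0.09 in 3B3L (adjusted p = 2.85e-05 and 0.00529). Aldh9a1, an aldehyde dehydrogenase, fell by 0.32 ± 0.04 and 0.39 ± 0.04.

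In the methionine cycle and transsulfuration, which receive the methyl group and use homocysteine, 12 of 13 genes were tested. In J1 6 rose and 3 fell, and in 3B3L 7 rose and 2 fell (medians 0.13 and 0.24). Of all genes tested, 33.2% rose and 32.9% fell in J1, and 32.7% rose and 32.7% fell in 3B3L. Cbs, the cystathionine synthase that takes homocysteine towards cysteine, rose from 33.1 ± 2.77 to 59.2 ± 3.34 CPM in J1 (0.84 ± 0.06, adjusted p = 9.27e-09). In 3B3L it rose from 32.9 ± 1.13 to 80.5 ± 2.95 CPM (1.29 ± 0.06, adjusted p = 4e-11). Mtrr, the reductase that keeps methionine synthase active, fell by 0.41 ± 0.05 in J1 (adjusted p = 9.09e-07) and gave 0.01 ± 0.05 in 3B3L (adjusted p = 0.925). Ahcy, which cleaves S-adenosylhomocysteine, gave -0.43 ± 0.18 in J1 (adjusted p = 0.0469) and 0.22 ± 0.19 in 3B3L (adjusted p = 0.321), and the J1 call was lost under 11 alternatives. Among its relatives in J1, Ahcyl1 gave 0.03 ± 0.07 (adjusted p = 0.711) and Ahcyl2 rose by 0.3 ± 0.06 (adjusted p = 0.000701). In 3B3L Ahcyl1 fell by 0.38 ± 0.07 and Ahcyl2 by 0.18 ± 0.06 (adjusted p = 0.0209). The call of Ahcyl2 in 3B3L was lost without replicate 1 or 3 of 3B3L 2i and without replicate 2 or 3 of 3B3L serum (adjusted p 0.0508 to 0.0903 by edgeR). Mat1a, the liver form of the SAM synthase, did not pass the filter, with 3.02 to 11 reads summed over the libraries of a group.

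The 9 partners of DMGDH and SARDH in sarcosine, electron and folate handling were all tested. In J1 5 rose and 3 fell, and in 3B3L 4 rose and 3 fell (medians 0.21 and 0.14). The shares over all genes tested were 33.2% higher and 32.9% lower in J1, and 32.7% each way in 3B3L. Flad1, the FAD synthase, rose by 0.67 ± 0.07 (adjusted p = 7.3e-07) and 0.74 ± 0.08 (adjusted p = 2.69e-07), and Etfdh, which passes electrons on from the electron transfer flavoprotein, by 0.5 ± 0.06 and 0.37 ± 0.06. Pipox, a peroxisomal oxidase that also acts on sarcosine, went from 84.5 ± 4.8 CPM in serum to 47.7 ± 0.752 CPM in 2i in J1. It fell by 0.83 ± 0.05 in J1 (adjusted p = 8.99e-10) and by 0.15 ± 0.05 in 3B3L (adjusted p = 0.0153), and the effects differed by 0.67 ± 0.07 (adjusted p = 5.05e-06). Fpgs, the folate polyglutamate synthase, fell by 0.32 ± 0.07 and 0.31 ± 0.07, and Slc25a32, the mitochondrial folate carrier, by 0.2 ± 0.07 and 0.21 ± 0.08. In 3B3L the call of Slc25a32 was lost without replicate 2 or 3 of either medium (adjusted p 0.0513 to 0.0818 by edgeR).

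Other small-molecule methyltransferases use SAM as GNMT does. Of 6 listed genes 4 were tested, and 4 rose in each line (medians 0.7 and 0.82), where 33.2% of all genes tested rose in J1 and 32.7% in 3B3L. Nnmt, which methylates nicotinamide, went from 0.065 ± 0.0348 to 0.877 ± 0.194 CPM with 2i in J1, while in 3B3L it went from 0.0253 ± 0.00119 to 1.92 ± 0.32 CPM. It rose by 3.66 ± 0.36 in J1 (adjusted p = 2.23e-07) and 6.09 ± 0.39 in 3B3L (adjusted p = 9.01e-10), and its 2i effects differed by 2.43 ± 0.77 (adjusted p = 0.0236). The serum level rested on 8.03 reads in J1 and 3.03 in 3B3L, summed over 3 libraries. Gamt, of creatine synthesis, rose by 0.74 ± 0.18 and 0.51 ± 0.18, and Tpmt, the thiopurine methyltransferase, by 0.6 ± 0.07 and 0.68 ± 0.08. Of 5 polyamine genes fed by SAM, 1 rose and 3 fell in each line (median -0.7 in both), where 32.9% of all genes tested fell in J1 and 32.7% in 3B3L. The synthases Srm and Sms fell by 0.97 ± 0.07 and 1.18 ± 0.06 in J1 and by 0.74 ± 0.07 and 0.92 ± 0.06 in 3B3L, and the catabolic acetyltransferase Sat1 rose by 0.93 ± 0.07 and 0.75 ± 0.07.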

How the data were processed

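The members and gene lists were chosen with earlier results of these data known. RNA was sequenced from 12 libraries, labelled as biological replicates. The authors quantified stranded paired reads with Sailfish against mm10 transcript models and deposited a tximport table of estimated counts per gene, not scaled by depth or length, and transcript tables with TPM and estimated counts per library. The labels do not say which sequencing pool held a library, so a pool effect was not assessed. Transcripts were assigned to genes by GENCODE identifiers (90.4% assigned). Symbols were found for 85.6% of genes.

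Estimated counts were rounded. Genes were kept with filterByExpr in edgeR 4.0.16 (R 4.3.3), scaled by TMM (factors 0.97 to 1.038) and fitted over 12 libraries with 1 coefficient per group (biological coefficient of variation 6.49%). A call needed an adjusted p (Benjamini-Hochberg, over 17885 genes) under 0.05. CPM used TMM library sizes. Transcript shares were compared by exact permutation in 24 comparisons, of which none could go below 0.1. The exact intervals of the read ratios of Sardh and Chdh, and the floors, cover counting error only. The intervals of fitted log2 differences come from the SE of the fit and include the spread between replicates. Reads carried no molecular identifiers. Genes named from a list or the locus were, per line, the 2 that rose most and the 2 that fell most among called genes at 1 CPM or more in a group, and others are named as examples chosen after their values were seen. Some genes that this rule picks are left out of the text. Alternatives were DESeq2 1.42.0, its size factors, other filters, length offsets, a replicate block and leaving out each library. Counting coding transcripts alone and summing Bhmt with Bhmt2 were added after the data were seen.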

Additional observations from a re-analysis of the deposited data

Results flagged for a closer look

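The 2i effect differed between the lines, by the test of the difference itself (3B3L minus J1, edgeR), for 3 genes of the pathway. Of all 17885 genes tested, 16.3% were called with a positive and 18.3% with a negative difference, so a call alone sets no gene apart. The difference was 1.92 ± 0.25 for Bhmt (adjusted p = 3.11e-05) and 1.83 ± 0.18 for Bhmt2 (adjusted p = 2.24e-06). For Chdh it was -2.78 ± 1.03 (adjusted p = 0.0485), on 7 reads in the J1 libraries in 2i against 2 in those of 3B3L. The differences for Bhmt and Bhmt2 were called under every alternative run (adjusted p at most 0.000412 and 3.35e-05), and that for Chdh was not called under 15 of 18. Each difference contains the contrast that chose Dmgdh, so these tests are not independent of the choice of the set.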

How the results depend on the processing

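The J1 changes with 2i of Dmgdh, Bhmt, Bhmt2, Sardh and Gnmt, and the differences of Bhmt and Bhmt2 between the lines in 2i, kept their direction and their call under every alternative run. Sardh and Chdh gave no value with at least 10 counts in every library. With the offset for transcript length, Dmgdh was 5.55 for 2i in 3B3L, 0.42 between lines in serum and 2.01 for the difference of the 2i effects, Bhmt was 5.75 for 2i in 3B3L and -0.35 between lines in serum, and Chdh was -0.06 for 2i in J1 and 1.36 between lines in serum, with neither Chdh value called. With coding transcripts alone, the change with 2i in 3B3L was 7.67 for Dmgdh, 6.9 for Bhmt and -6.52 for Sardh. Between the lines Bhmt was then -1.36 in serum and called, and Sardh was -4.03 in 2i and called (adjusted p = 0.0475 by edgeR), with a difference of the 2i effects of -3.74. All reads of Sardh gave -0.29 ± 0.63 between the lines in 2i, with no call. The coding transcript Sardh-001 had 0 reads in 3B3L 2i, so the Sardh values on coding transcripts depend on the prior count and are no bound. Summing Bhmt and Bhmt2 gave 5.07 for 2i in 3B3L. The difference of the 2i effects for Chdh was not called with no filter (-2.77), by the DESeq2 Wald test (-2.96), with the replicate block (-2.77) or with coding transcripts alone (-1.63). Leaving out 1 library at a time gave -0.09 to 0.25 for Bhmt and -0.06 to 0.13 for Bhmt2 between lines in serum, -3.1 to -1.49 for Sardh and -5.54 to -4.66 for Chdh with 2i in 3B3L, -1.5 to 0.11 for Sardh and -0.58 to 0 for Gnmt between lines in 2i, and 1.11 to 1.27 for Chdh in serum. For the difference of the 2i effects it gave -0.99 to 0.62 for Sardh, -3.35 to -2.15 for Chdh and -0.74 to -0.15 for Gnmt. The number of members called between lines in serum went from 1 to 0 with at least 10 counts, with the length offset, and over a range of 0 to 1 with libraries left out. Deviations of libraries with the same replicate number correlated at -0.118 to 0.062, and those with different numbers at -0.176 to 0.174. No pairing by number was seen, which does not show whether libraries of the same number were prepared together. The replicate block changed no other call of a member. The cause of these shifts was not tested. Depth limits Sardh and Chdh, whose levels in 2i lie near 3 reads per library.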
